A study of Homo sapiens with 6 samples.

Results

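The genes described here are CLDN1, CLDN3, CLDN4, CLDN7 and CLDN12 (claudins), OCLN (occludin), MARVELD2 (tricellulin), F11R (the junctional adhesion molecule JAM-A) and TJP1 (the scaffold ZO-1). They were picked by symbol as a family of tight junction genes, and all 9 were found among the 23228 genes listed in each count table. The libraries were made from polyadenylated RNA of MDA-MB-231, an established human triple-negative breast cancer cell line. There were 3 libraries labelled shSCUBE3, from cells given lentivirus carrying shRNA against SCUBE3, a secreted protein with EGF-like repeats and a CUB domain. The 3 libraries labelled Scramble came from cells given lentivirus with a scrambled shRNA, and both kinds of cells were selected with puromycin. The labels do not give the shRNA sequences, how many hairpins were used, whether the selected cells were clones or pools, or whether replicates were separate cultures, so the p-values speak only of the variation among these 6 libraries, which may be technical.

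Tight junctions seal the space between neighbouring epithelial cells. Claudins cross the membrane and polymerise into strands that set which ions pass, occludin and tricellulin join those strands at contacts of a pair of cells and of several cells, JAM-A is an immunoglobulin-type adhesion molecule beside them, and ZO-1 ties their tails to actin. MDA-MB-231 is counted among the claudin-low breast cancer lines, which are known for low RNA of CLDN3, CLDN4, CLDN7 and E-cadherin and for mesenchymal traits. Factors of the SNAI and ZEB families bind DNA at E-boxes of the form CAGGTG and repress epithelial genes, several claudins and occludin among them.

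Stretches before the gene start are shown for CLDN3 and CLDN4, which lie next to each other on chromosome 7 and were both far higher in the libraries labelled shSCUBE3, for CLDN7, which was also higher, and for TJP1, which was lower. Sequences and positions are from RefSeq on GRCh38.p14, a later build than the hg19 used for the counts. The whole window of 250 bases is given for CLDN3 (chr7:73770271-73770520, minus strand) and TJP1 (chr15:29969050-29969299, minus strand). For CLDN4 (chr7:73830966-73830995, plus strand) and CLDN7 (chr17:7262479-7262508, minus strand), where GENCODE v29 exons of the same gene cover the whole window, the last 30 bases are given. Each runs 5′ to 3′ toward the start, and capitals mark CAGGTG on either strand, which reads CACCTG where it lies on the other one.
CLDN3: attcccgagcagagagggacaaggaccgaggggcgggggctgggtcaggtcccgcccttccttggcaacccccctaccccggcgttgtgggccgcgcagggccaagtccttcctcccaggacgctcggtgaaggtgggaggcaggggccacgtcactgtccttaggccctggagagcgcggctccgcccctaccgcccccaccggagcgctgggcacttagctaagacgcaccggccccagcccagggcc
CLDN4: ccatataactgctcaacctgtccccgagag
CLDN7: tacatatactCAGGTGcgcccCACCTGtcc
TJP1: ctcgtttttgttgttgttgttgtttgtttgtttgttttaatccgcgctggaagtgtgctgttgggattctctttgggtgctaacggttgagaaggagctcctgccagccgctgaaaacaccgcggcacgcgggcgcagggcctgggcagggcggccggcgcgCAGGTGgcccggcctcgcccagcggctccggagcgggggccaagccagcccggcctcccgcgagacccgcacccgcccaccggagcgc

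Over the 250 bases before the start, CLDN7 held 4 such E-boxes, whose first bases lay 174, 135, 20 and 9 bases before the start. The window of an alternative CLDN7 start held 0. CLDN3 and CLDN4 held 0. The TJP1 window shown held 1, at 88 bases before the start, and the windows of the 3 other TJP1 starts held 0. Of 35116 RefSeq windows of this length, 17.5% held at least 1 match and 0.464% held 3 or more. In all, 8 of the 9 genes had a window (F11R did not), 13 windows counting alternative starts. Besides CLDN7 and TJP1, OCLN had a match, 1 in each of its windows, and CLDN1, CLDN12 and MARVELD2 had 0. Genes with a match thus included higher and lower ones. The CLDN4 window had 4 CpG pairs and 58.8% G and C, against 19 CpG pairs in the CLDN3 window, 25 in that of CLDN7 and 26 in that of TJP1. The window of another TJP1 start had 2 CpG pairs and 34.8% G and C. That of the alternative CLDN7 start had 9 and 60.4%, and that of CLDN12 had 12 and 54.4%. The remaining windows held 19 to 28 CpG pairs. A match is a string of letters and not a measured binding site.

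SCUBE3 RNA itself was not lower in the libraries labelled shSCUBE3. SCUBE3 had 99, 107 and 101 reads in the shSCUBE3 libraries, against 96, 91 and 80 in the Scramble libraries. Its log2 fold change was 0.025 ± 0.14 (standard error, SE), with a 95% interval of -0.26 to 0.31 (edgeR quasi-likelihood test, adjusted p = 0.871; exact permutation p = 0.8, n = 3 each, where 0.1 is the smallest possible). Each direction below is therefore that of the labels. The labels state that SCUBE3 was checked by western blot, whose results are not analysed here. Reads in genes ran from 24249429 to 25520901 per shSCUBE3 library and from 21348509 to 24234762 per Scramble library. Across all genes, 85.9% of the 13606 tested passed an adjusted p of 0.05, with 43.4% higher and 42.5% lower, so passing the test sets a gene apart from few others. Both groups held RNA of the 5 genes known to be high in MDA-MB-231 (VIM, AXL, CD44, EGFR and CAV1). Levels are in CPM, counts of a gene relative to the reads in genes of its library, scaled by TMM factors. The 5 summed to 5508 to 5660 CPM in the shSCUBE3 libraries and 6837 to 7178 in Scramble. On average, VIM (2395 and 4371 CPM), EGFR (220 and 394) and AXL (1140 and 1282) were lower in the shSCUBE3 libraries. CD44 (1046 and 578 CPM) and CAV1 (773 and 360) were higher. The 5 genes known to be low or absent in this line (ESR1, PGR, ERBB2, GATA3 and ERBB3) summed to 111 to 115 CPM in the shSCUBE3 libraries and 70.0 to 74.1 in Scramble, mostly from ERBB2 (92.3 and 53.5 CPM on average). GATA3 was also higher (15.5 and 5.91 CPM) and ERBB3 lower (5.86 and 12.2 CPM), while PGR had 0 reads in the shSCUBE3 libraries and 66 in all in Scramble. CDKN2A, known as deleted in this line, had 0 reads in the shSCUBE3 libraries and 1 read in all in Scramble.

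Markers of other cell types moved with the label as well. The 8 luminal epithelial markers summed to 754 to 770 CPM in the shSCUBE3 libraries and 720 to 749 in Scramble, with 1 of the 8 (ESR1) at 0 reads in the shSCUBE3 libraries. Within that list CDH1 was 2.01 ± 0.332 CPM in the shSCUBE3 libraries and 0.0458 ± 0.0478 in Scramble (SD, n = 3 each), while FOXA1, a luminal transcription factor, was 0.0532 ± 0.0240 and 21.8 ± 1.58 CPM. The 4 basal markers summed to 1.43 to 1.90 CPM in the shSCUBE3 libraries and 0.126 to 0.286 in Scramble. TP63 made most of that (1.27 and 0.169 CPM on average), and KRT5 and KRT14 were at 0 in every library. The 5 fibroblast markers summed to 19.6 to 21.9 and 5.01 to 6.11 CPM, with DCN at 0 in every library and LUM at 0 in Scramble. The 6 leukocyte markers summed to 160 to 172 CPM in the shSCUBE3 libraries and 929 to 970 in Scramble, of which LCP1 made 2.70 and 666 CPM on average and CD68 156 and 286 CPM. CD14 went the other way, with 6.20 ± 0.433 CPM in the shSCUBE3 libraries and 0.234 ± 0.127 in Scramble (SD, n = 3 each). PTPRC, which defines leukocytes, averaged 0.145 CPM in the shSCUBE3 libraries and 0.133 in Scramble, and CD3E had 1 read in all in the shSCUBE3 libraries and 0 in Scramble. The 4 endothelial markers summed to 2.61 to 2.86 and 0.810 to 1.47 CPM, mostly from PECAM1 (2.59 and 0.976 CPM on average), with CLDN5 at 0 in every library. The part of these markers in the results below was not tested. In bulk RNA, more cells of a kind and more RNA per cell cannot be told apart.

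All 9 junction genes passed the low-count filter and were tested, and in 9 of 9 the libraries of the groups did not overlap, where 85.8% of all tested genes did not. Of the 9, 6 were higher and 3 lower in the libraries labelled shSCUBE3, where 43.4% of all tested genes were higher and 42.5% lower. The median log2 fold change of the 9 was 1.07, against 0.01 over all tested genes. Of the 3 lower calls, that of CLDN1 held under only 3 of 13 other settings. CLDN3 and MARVELD2 passed the filter only through their reads in the shSCUBE3 libraries, so they could enter the count only by differing. A call with a log2 fold change of at least 1 was made for CLDN3, CLDN4, CLDN7, F11R and MARVELD2, against 17.5% of all tested genes higher by that much; for CLDN3 and CLDN4 it was at least 4, against 2.9% of all tested genes. For CLDN3 that rests on single libraries: its log2 fold change was 3.51 without Scramble replicate 2, 3.96 without shSCUBE3 replicate 2 and 4.91 without Scramble replicate 1. Adjusted p-values below are from edgeR's quasi-likelihood test, with Benjamini-Hochberg adjustment over all 13606 genes.

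**Figure D1:**
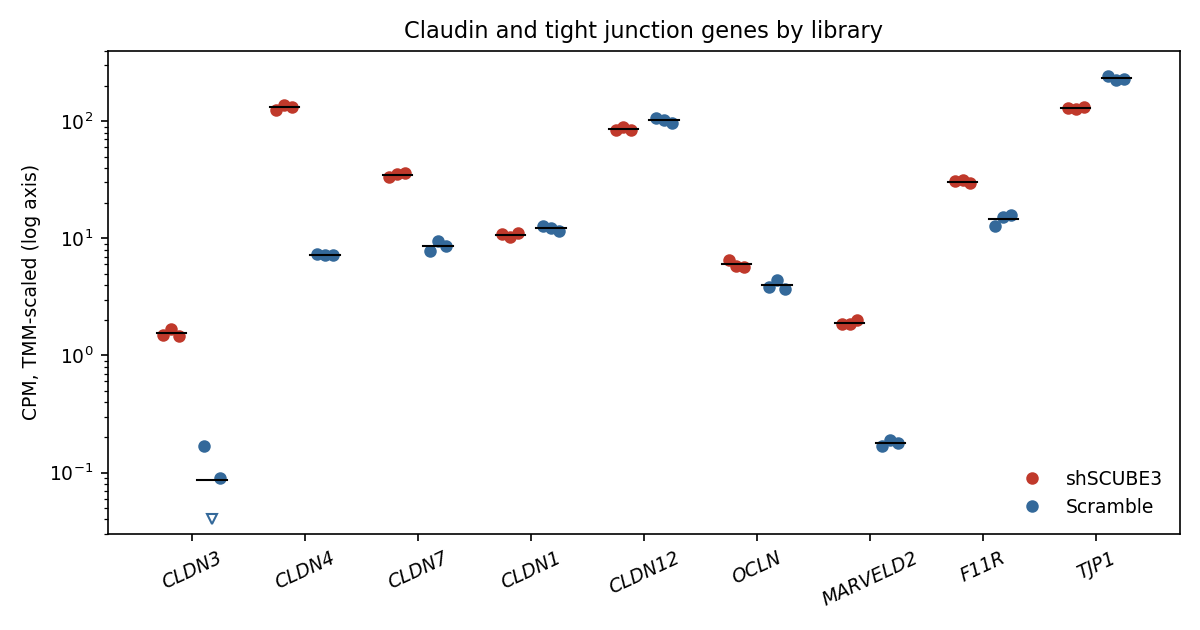
CPM of each gene in each library on a log axis, with shSCUBE3 libraries in red left of Scramble libraries in blue and the group mean as a bar; the open triangle is a library with 0 reads, drawn at 0.04. CLDN3, CLDN4, CLDN7 and MARVELD2 stand far apart between the groups, CLDN1 and CLDN12 lie close together, and TJP1 is lower in all 3 shSCUBE3 libraries.

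CLDN4 and CLDN3 had the highest log2 fold changes of the 9, and their order was not settled, since CLDN3 was above CLDN4 with limma-voom (4.29 and 4.18) and without Scramble replicate 1 (4.91 and 4.19). CLDN4, a barrier-forming claudin that limits the passage of cations and is a receptor for Clostridium perfringens enterotoxin, had 125, 137 and 133 CPM in the shSCUBE3 libraries, against 7.28, 7.21 and 7.16 CPM in the Scramble libraries. Each shSCUBE3 library was thus far above each Scramble library, and the Scramble libraries lay within a narrow range. The means were 132 ± 5.69 and 7.22 ± 0.0647 CPM (SD, n = 3 each), 18.2-fold higher, and the log2 fold change was 4.19 ± 0.06 (SE; edgeR adjusted p = 5.91e-39). Among all tested genes, 2.72% had a higher log2 fold change.

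CLDN3, the neighbour and a close relative of CLDN4 and also a receptor for that enterotoxin, was read far less often. It had 37, 44 and 36 reads in the shSCUBE3 libraries, against 4, 0 and 2 reads in the Scramble libraries, or 1.55 ± 0.132 and 0.0862 ± 0.0843 CPM (SD, n = 3 each). Its log2 fold change of 4.03 ± 0.44 (SE; edgeR adjusted p = 1.04e-10) was close to that of CLDN4 in size, with a 95% interval of 3.13 to 4.93 that takes in the CLDN4 value. Of the 50-base stretches of CLDN3 transcripts 1.80% also occur in CLDN4, and the part of CLDN4 reads in the CLDN3 counts was not tested. There were 84.6, 80.5 and 91.1 CLDN4 reads per CLDN3 read in the shSCUBE3 libraries, against 43.2 and 79.5 in Scramble replicates 1 and 3 (Scramble replicate 2 had 0 CLDN3 reads).

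CLDN7, a barrier claudin known to bind the adhesion protein EpCAM, was the other claudin of the claudin-low signature that was higher. CLDN7 had 33.5, 35.5 and 35.9 CPM in the shSCUBE3 libraries, against 7.87, 9.50 and 8.60 CPM in the Scramble libraries. All 3 shSCUBE3 libraries were above all Scramble libraries. The log2 fold change was 2.02 ± 0.08 (SE; edgeR adjusted p = 4.29e-25). The counts' strand setting is not known. An overlapping unnamed gene on the same strand shares 10.4% of the 50-base stretches of CLDN7. That gene was not found by symbol among the genes counted, and its part in the CLDN7 counts was not tested. CLDN7 exons also overlap ELP5, listed as C17orf81, on the opposite strand, and C17orf81 went the other way, with 45.7 ± 0.960 CPM in the shSCUBE3 libraries and 64.9 ± 1.97 CPM in Scramble (SD, n = 3 each).

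The remaining claudins of the 9 went down by little. CLDN12, an atypical claudin without the usual tail motif that binds ZO proteins, had 83.7, 88.8 and 84.1 CPM in the shSCUBE3 libraries, against 107, 103 and 96.1 CPM in the Scramble libraries. It was 0.839 times the Scramble level, a log2 fold change of -0.25 ± 0.04 (SE; edgeR adjusted p = 1.23e-06). CLDN1, which the skin barrier needs and which serves hepatitis C virus as an entry factor, had 10.98, 10.23 and 11.09 CPM in the shSCUBE3 libraries, against 12.7, 12.4 and 11.7 CPM in the Scramble libraries. The groups did not overlap, but the gap was small. Its log2 fold change of -0.19 ± 0.09 (SE) lay just inside the threshold (edgeR adjusted p = 0.0472). That call was lost under 10 of 13 other settings, with adjusted p from 0.0277 to 0.173 over all of them; it was lost with DESeq2 (0.118) and when any library but Scramble replicate 3 was left out (0.0645 to 0.173 over the other 5).

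Within a library, the number of CLDN4 reads per CLDN1 read was 11.4, 13.4 and 12.0 in the shSCUBE3 libraries, against 0.573, 0.583 and 0.614 in the Scramble libraries. Such a ratio does not depend on how libraries are scaled. CLDN4 reads thus outnumbered CLDN1 reads in each shSCUBE3 library and were fewer than CLDN1 reads in each Scramble library.

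**Figure D2:**
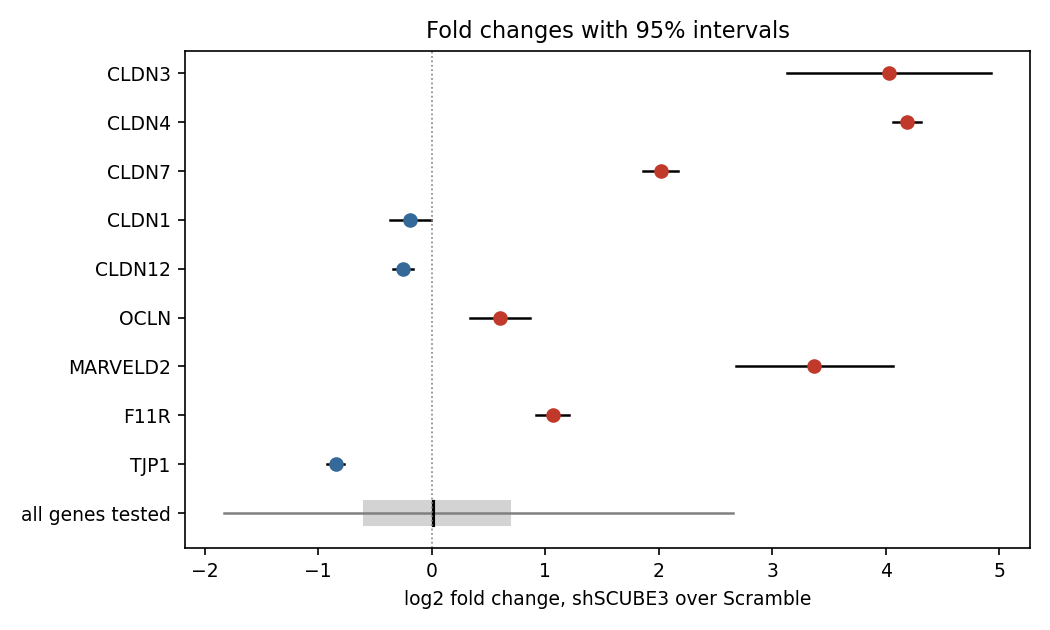
Log2 fold change of each gene, shSCUBE3 over Scramble, with its 95% interval from the edgeR fit; the grey box and line give the middle 50% and the 5th to 95th percentile of all tested genes. CLDN3, CLDN4 and MARVELD2 lie to the right of that line, with values of 4.03, 4.19 and 3.37, while CLDN1 at -0.19 and CLDN12 at -0.25 lie inside the box.

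The tetraspan partners of claudins were both higher. OCLN had 6.57, 5.83 and 5.66 CPM in the shSCUBE3 libraries, against 3.83, 4.39 and 3.69 CPM in the Scramble libraries, 1.52-fold higher, with a log2 fold change of 0.60 ± 0.13 (SE; edgeR adjusted p = 7.45e-05). The lowest shSCUBE3 library was above the highest Scramble library. OCLN has a partial copy, OCLNP1, and 8.93% of its 50-base stretches occur in other genes' transcripts, so its reads may be undercounted or shared. MARVELD2, whose loss causes deafness in humans, had 46, 48 and 50 reads in the shSCUBE3 libraries, against 4 in each Scramble library. That made 1.91 ± 0.101 and 0.180 ± 0.0112 CPM (SD, n = 3 each) and a log2 fold change of 3.37 ± 0.34 (SE; edgeR adjusted p = 1.23e-11). Reads of OCLN per MARVELD2 read were 3.17 ± 0.383 in the shSCUBE3 libraries and 22.1 ± 1.38 in the Scramble libraries (SD, n = 3 each).

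F11R, the adhesion receptor JAM-A, had 30.7, 31.3 and 29.6 CPM in the shSCUBE3 libraries, against 12.8, 15.1 and 15.8 CPM in the Scramble libraries. It was 2.09-fold higher, with no overlap and a log2 fold change of 1.07 ± 0.07 (SE; edgeR adjusted p = 7.69e-17). Of its 50-base stretches 38.2% also occur in other transcripts, chiefly those of an overlapping gene on the same strand (AL591806.3 in GENCODE v29). AL591806.3 was not found by symbol among the genes counted, and the part of these shared stretches in the F11R counts was not tested. TSTD1, the next gene, had 515 reads in all in the shSCUBE3 libraries and 1 read in Scramble.

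TJP1 was the most lowered of the 9. TJP1, the scaffold that joins claudins, occludin and JAM-A to the actin cytoskeleton, had 131, 127 and 132 CPM in the shSCUBE3 libraries, against 246, 224 and 230 CPM in the Scramble libraries. Every shSCUBE3 library was below every Scramble library. The level was 0.557 times that of Scramble, with a log2 fold change of -0.85 ± 0.04 (SE; edgeR adjusted p = 3.59e-23). None of its 50-base stretches occur in another gene's transcripts (0 of 9738). There were 0.235 ± 0.0104 F11R reads per TJP1 read in the shSCUBE3 libraries and 0.0627 ± 0.00905 in Scramble (SD, n = 3 each).

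Levels can be compared between genes per kilobase of transcript. In the libraries labelled shSCUBE3, CLDN4 led with 71.9 ± 3.11 CPM per kilobase, followed by CLDN12 (24.0 ± 0.794), CLDN7 (18.2 ± 0.650), TJP1 (16.4 ± 0.300), F11R (6.31 ± 0.172), CLDN1 (3.09 ± 0.135), CLDN3 (1.21 ± 0.104), OCLN (0.935 ± 0.0752) and MARVELD2 (0.436 ± 0.0231; SD, n = 3 each). Each neighbour in that order was further apart than the sum of their SDs. In the Scramble libraries TJP1 (29.4 ± 1.39) and CLDN12 (28.6 ± 1.53) led and did not differ beyond their spread. They were followed by CLDN7 (4.50 ± 0.422), CLDN4 (3.94 ± 0.0353), CLDN1 (3.52 ± 0.155), F11R (3.01 ± 0.317), OCLN (0.617 ± 0.0574), CLDN3 (0.0676 ± 0.0662) and MARVELD2 (0.0411 ± 0.00256). CLDN3 and MARVELD2, at the low end, did not differ beyond their spread either. CLDN4 thus stood first with the shSCUBE3 label and below TJP1, CLDN12 and CLDN7 in Scramble. With the union of all annotated exons as length, which adds upstream exons to CLDN4, CLDN4 was at 31.4 CPM per kilobase in the shSCUBE3 libraries, still above CLDN12 at 24.0, and at 1.72 in Scramble, below CLDN1 and F11R. On that length TJP1 was at 24.1 in Scramble, below CLDN12 at 28.6.

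Of the 23 claudin genes in the tables, 14 had a read in some library. Summed over all 23 per kilobase of transcript, claudin RNA was 133 ± 5.09 CPM per kilobase in the shSCUBE3 libraries and 46.4 ± 1.90 in Scramble (SD, n = 3 each). CLDN4 made up 53.9% ± 0.327 of that sum in the shSCUBE3 libraries and 8.50% ± 0.300 in Scramble, CLDN12 18.01% ± 0.363 and 61.6% ± 1.36, CLDN7 13.7% ± 0.298 and 9.71% ± 0.951, and CLDN1 2.33% ± 0.176 and 7.58% ± 0.110. The leading claudin was CLDN4 in every shSCUBE3 library and CLDN12 in every Scramble library. The size of the gap in the sum depends on the length used. With the union of exons as length the sum was 90.7 ± 3.24 CPM per kilobase in the shSCUBE3 libraries and 43.4 ± 1.85 in Scramble. On that length the shares were 34.6% and 3.97% for CLDN4 and 26.4% and 65.9% for CLDN12, with the same leaders.

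**Figure D3:**
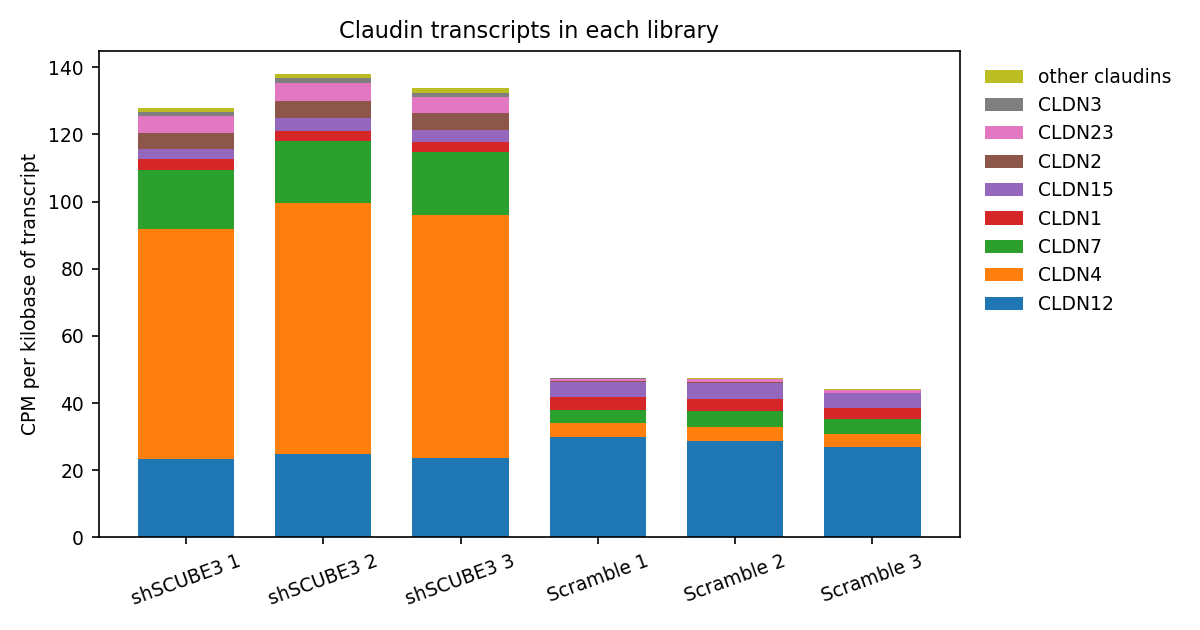
Summed claudin RNA in CPM per kilobase of transcript for each library, stacked by gene, with the shSCUBE3 libraries on the left and the Scramble libraries on the right. CLDN4 makes up 53.9% of the sum in the shSCUBE3 libraries and 8.50% in Scramble, where CLDN12 makes up 61.6%.

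Of 18 further claudin genes, 9 had 0 reads in every library, 4 had too few reads to be tested, and 5 were tested. Of these 5, 4 were higher and 1 lower, with a median log2 fold change of 2.62, where 43.4% of all tested genes were higher and 42.5% lower. CLDN2, CLDN9 and CLDN11 passed the low-count filter only through their reads in the shSCUBE3 libraries, so they could enter the count only by differing. CLDN2, a claudin that forms cation and water pores, had 15.6 ± 0.928 CPM in the shSCUBE3 libraries and 0.469 ± 0.250 in Scramble (SD, n = 3 each), a log2 fold change of 5.01 ± 0.18 (SE; edgeR adjusted p = 4.30e-26). CLDN23 had 11.1 ± 0.379 and 1.81 ± 0.404 CPM. CLDN11, the claudin of myelin and of the testis barrier, had 44, 50 and 60 reads in the shSCUBE3 libraries, against 0, 1 and 0 in the Scramble libraries, a ratio of 136 (exact 95% counting interval 24.1 to 5421). CLDN15, another pore-forming claudin, was the lower one, with 7.50 ± 0.870 CPM in the shSCUBE3 libraries and 9.78 ± 0.586 in Scramble (log2 fold change -0.38 ± 0.10, SE).

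Among 10 other membrane proteins of tight junctions, 4 were tested. Of these, 3 were higher and LSR was lower, where 43.4% of all tested genes were higher and 42.5% lower. The median log2 fold change of the 4 was 0.82, against 0.01 over all tested genes. ILDR2, an angulin of contacts between several cells, had 47.6 ± 0.448 CPM in the shSCUBE3 libraries and 14.8 ± 0.619 in Scramble (SD, n = 3 each). LSR, the angulin known to bring tricellulin to those contacts, went the other way, with 28.8 ± 1.63 and 52.8 ± 0.699 CPM (log2 fold change -0.87 ± 0.05, SE). MARVELD2 and LSR, partners at the same structure, were thus higher and lower with the same label. The adhesion molecules ESAM (0.55 ± 0.04) and CXADR (1.08 ± 0.10), relatives of JAM-A, were higher. MARVELD3, JAM2, JAM3 and ILDR1 had 0 reads in every library, which allows up to 0.0397 CPM in the shSCUBE3 libraries and 0.0448 CPM in Scramble (3 reads over a group, counting error only).

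Of 23 scaffold and polarity genes, 21 were tested, with 7 higher, 11 lower and 3 that did not pass, and a median of -0.15, where 43.4% of all tested genes were higher and 42.5% lower. With library totals, or with the DESeq2 Wald test, 7 were higher and 9 lower. AMOT, an angiomotin that binds polarity and Hippo pathway proteins, had 8, 5 and 2 reads in the shSCUBE3 libraries, against 480, 440 and 475 in the Scramble libraries (log2 fold change -6.68 ± 0.18, SE; edgeR adjusted p = 7.70e-30). AMOT passed the low-count filter only through its reads in the Scramble libraries, so it could enter the count only by differing. Its relative AMOTL1 (-0.58 ± 0.03) and the scaffold gene MAGI1 (-0.81 ± 0.04) were lower too. PARD6B, an adaptor of the PAR polarity complex, was higher, with 42.6 ± 0.367 CPM in the shSCUBE3 libraries and 8.63 ± 0.216 in Scramble (SD, n = 3 each).

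Regulators were split evenly, with 5 of 11 tested higher, 5 lower and EPCAM not passing, and a median of 0.08. Of all tested genes, 43.4% were higher and 42.5% lower. MICALL2, a RAB13 effector in junction traffic, was higher (log2 fold change 2.77 ± 0.11, SE). CSDA (the ZO-1-binding factor ZONAB, now YBX3) was lower, with 102 ± 5.51 CPM in the shSCUBE3 libraries and 205 ± 5.99 in Scramble, as was WNK4, a kinase that phosphorylates claudins (log2 fold change -2.74 ± 0.13). EPCAM had 15.4 ± 0.300 and 14.6 ± 0.658 CPM, a log2 fold change of 0.08 with a 95% interval of -0.08 to 0.24 (edgeR adjusted p = 0.324).

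Of 14 transcription factors known to act on junction genes, 8 were tested. Of these, 2 were higher and 6 lower, where 43.4% of all tested genes were higher and 42.5% lower. The median log2 fold change of the 8 was -0.70, against 0.01 over all tested genes. ZEB1, a repressor of epithelial genes, had 88.7 ± 2.44 CPM in the shSCUBE3 libraries and 170 ± 3.71 in Scramble (SD, n = 3 each). SNAI1, another repressor and named after its values were seen, had 6, 16 and 16 reads in the shSCUBE3 libraries, against 90, 85 and 80 in the Scramble libraries. On its shSCUBE3 reads alone SNAI1 would not have passed the low-count filter, so its Scramble reads brought it into the count. SNAI2, of the same family, was higher, with 42.0 ± 2.63 and 19.5 ± 0.413 CPM. ELF3, an epithelial ETS factor, had 395 reads in all in the shSCUBE3 libraries and 2 in Scramble, a ratio of 175 (exact 95% counting interval 48.1 to 1449). ELF3 passed the low-count filter only through its reads in the shSCUBE3 libraries, so it could enter the count only by differing. KLF5 was lower (log2 fold change -1.09 ± 0.05, SE). GRHL2, known to raise CLDN4 and other junction genes, had 1 read in all in each group.

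**Figure D4:**
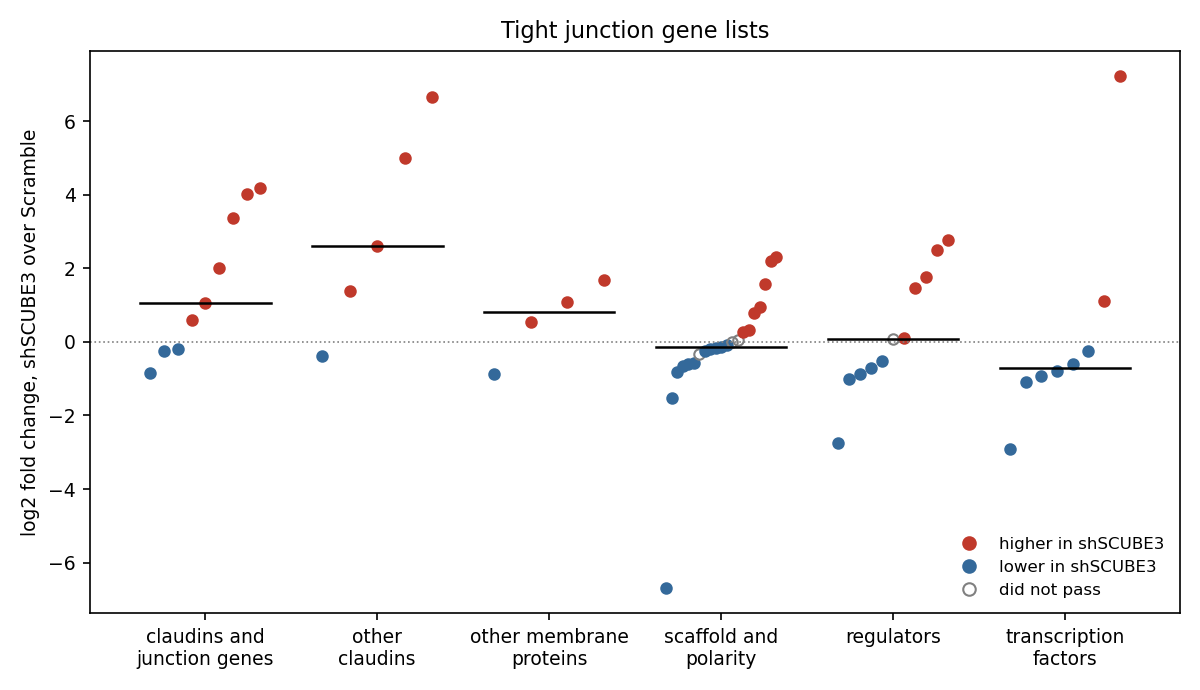
Log2 fold changes, shSCUBE3 over Scramble, of the tested genes of each list, with genes higher in red, lower in blue and not passing an adjusted p of 0.05 as open circles; the bar is the list's median and the dotted line the median of all tested genes. Medians run from 2.62 for other claudins and 1.07 for the 9 junction genes to -0.15 for scaffold and polarity genes and -0.70 for the transcription factors.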

How the data were processed

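Each library has 1 deposited table of raw read counts, with a line per gene symbol. The submitters' processing notes name bcl2fastq, TopHat2 2.0.8b, HTSeq and hg19. The strand setting, overlap mode and annotation release of the counting were not given in any source used here, which matters for overlapping genes. Per the labels' protocols, the kit was a stranded mRNA kit and reads were single, of 50 bases. The 5 summary lines (41.1% ± 0.150 of the file total for shSCUBE3 and 49.4% ± 0.370 for Scramble; SD, n = 3 each) entered neither library sizes nor tests.

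Libraries were grouped by title. The 13606 genes passing filterByExpr were TMM-scaled, then compared between groups with the robust quasi-likelihood F test of edgeR 4.0.16 (R 4.3.3, two-sided), adjusted by Benjamini-Hochberg over all of them at 0.05. The SE was taken from the log2 fold change and F. The fit was tested on simulated data. No replicates were merged, since chi-square statistics of their counts were 1.69 to 3.55 per degree of freedom. Alternatives were DESeq2's size factors, library totals, upper-quartile scaling, no low-count filter, DESeq2 1.42.0, limma-voom (limma 3.58.1), the replicate number as a block, and each library left out. Lengths are those of the longest GENCODE v29 protein-coding transcript paired with a RefSeq mRNA; this choice and its alternative were made after first values were seen. Reads carry no molecular identifiers, so counting intervals and floors cover counting error only.

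Members and gene lists were chosen with earlier results of these data known. Named from each list were up to 4 tested genes by adjusted p, of which 1 is not reported here; EPCAM, SNAI1, GRHL2, CDH1, FOXA1 and the genes listed at 0 were named after their values were seen.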

Additional observations from a re-analysis of the deposited data

Results flagged for a closer look

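Reads that fell in more than 1 gene, which are given to none and so bear on junction genes with overlapping neighbours such as CLDN7, made up 0.593% ± 0.00441 of the file total in the shSCUBE3 files and 0.537% ± 0.00504 in the Scramble files (SD, n = 3 each; exact permutation p = 0.1, the smallest possible). They are outside the counts tested here, and were higher than in the Scramble files in all 3 shSCUBE3 files.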

How the results depend on the processing

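Under the 13 alternatives, CLDN3, CLDN4, CLDN7, OCLN, F11R and MARVELD2 stayed higher and CLDN12 and TJP1 lower in the shSCUBE3 libraries, each past the threshold. CLDN1 kept its direction and lost its call with DESeq2's size factors (log2 fold change -0.18, adjusted p = 0.0508), library totals (-0.14, 0.148), no low-count filter (-0.19, 0.0630), the DESeq2 Wald test (-0.18, 0.118) and the replicate block (-0.19, 0.0518); the cause was not tested. With 1 library left out, CLDN1 ran from -0.23 to -0.15 and SCUBE3 from -0.0503 to 0.0796, and SCUBE3 turned negative without Scramble replicate 3 (-0.0503, edgeR adjusted p = 0.764); fewer samples enter these fits. Whether the same numbers pair the libraries could not be told from so few small correlations. Deviations of same-numbered libraries correlated at 0.0556, 0.0419 and 0.00108, against -0.0664 to 0.0255 for other pairs of a shSCUBE3 and a Scramble library. Not every library correlated best with its own number. Under the replicate block 5919 genes were higher and 5787 lower, against 5899 and 5782 without it. CLDN3 ran from 3.51 to 4.91 with 1 library left out. Depth limits CLDN3 and MARVELD2, with 6 and 12 reads in all in the Scramble libraries.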

Other observations

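Genes beside the 9 on their chromosomes moved both ways. Of 28 genes within 2 places on either side in RefSeq order (GRCh38.p14, used for neighbours only), 16 were tested, with 5 higher, 6 lower and 5 not passing in the libraries labelled shSCUBE3 and a median log2 fold change of -0.02 (edgeR, 85.9% of all tested genes passing). CLDN3 and CLDN4 have ABHD11 on one side, with a log2 fold change of 0.96 ± 0.08 (SE), and WBSCR27 on the other, with 173 reads in all in the shSCUBE3 libraries and 157 in Scramble (-0.04 ± 0.19). MARVELD2 and OCLN are next to each other, and RAD17, on the far side of MARVELD2, was lower (-0.25 ± 0.05). Beside CLDN12, CDK14 was lower (-1.30 ± 0.07) and FZD1, a Wnt receptor, higher (1.94 ± 0.07). Beside F11R, TSTD1 had 515 reads in all in the shSCUBE3 libraries and 1 in Scramble. TSTD1 passed the low-count filter only through its reads in the shSCUBE3 libraries, so it could enter the count only by differing. USF1 had a log2 fold change of 0.04 ± 0.05 and did not pass (edgeR adjusted p = 0.459).

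The 5 tested genes whose profile over the 6 libraries was nearest to that of CLDN4 were CD82, HLA-B, HSD3B7, EDN2 and XAF1, by Euclidean distance of centred log2(CPM + 0.5), at distances of 0.144, 0.144, 0.146, 0.149 and 0.161. CD82, a tetraspanin, had 222 CPM on average in the shSCUBE3 libraries and 11.9 in Scramble, and HLA-B had 865 and 49.4. EDN2 (8.95 and 0.0299 CPM) and XAF1 (8.62 and 0.0150 CPM) are near 0 in Scramble, where the pseudocount sets the distance. With 2 groups the likeness is mostly that of the difference between the groups.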
